A study of Saccharomyces cerevisiae with 9 samples.

Results

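Aminoacyl-tRNA synthetases attach each amino acid to its tRNA. Their transcripts were compared between budding yeast with and without LOS1, which encodes the exportin that carries tRNA from the nucleus to the cytosol. The genes were taken from a list of 34: 20 genes of cytosolic enzymes, 13 genes of mitochondrial enzymes and ARC1, whose protein binds the cytosolic enzymes for glutamate and methionine. Probe sets named 33 of the 34, with 1 probe set for each. The gene of the cysteine enzyme, YNL247W, counted among the 20 cytosolic genes, had none and was not analysed here. All 33 belonged to the 5449 Saccharomyces cerevisiae genes in the test. Genes were chosen by name, with earlier results of these data known.

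The series compared LOS1 knockout cells with wild type, in order to find genes that could act on lifespan downstream of Los1. Wild type was the haploid laboratory strain BY4742, measured on 6 arrays (cultures 1 to 6). The knockout was BY4742 with LOS1 deleted, measured on 3 arrays (cultures 7 to 9), whose titles also name URA3. Per the labels' protocols, all cultures grew in rich glucose medium at 30 °C with shaking at 225 rpm to an OD600 of 0.5, from 3 isolates of each strain, with the wild-type isolates grown in duplicate. The labels do not tie arrays to isolates, so each array counted as 1 replicate, and p-values measure how cultures differ, some of them cultures of the same isolate. The wild-type titles name 2% glucose, while the deletion titles give no glucose level. No title names a nutrient restriction.

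The deleted gene was read first, as a check of the labels. LOS1 transcript ran from 10.89 to 11.34 in wild type (median 11.10, log2 scale) and was 3.65, 2.76 and 3.18 in deletion cultures 7, 8 and 9. The deletion values lay under the array background, which makes LOS1 at least 84.1-fold lower in the deletion (adjusted p from limma = 4.79e-10). Background here is the 95th percentile of the probe sets for fission yeast that the same array carries, 4.68 to 4.74 per array. URA3 transcript was under background on all 6 wild-type arrays and at 10.88 ± 0.04 (SD, n = 3) in the deletion, at least 72.8-fold higher (limma adjusted p = 2.06e-11), so the loss of LOS1 and the gain of URA3 cannot be told apart. BY4742 is a haploid of mating type α. The α genes MF(ALPHA)1 and STE3 read 13.83 ± 0.04 and 12.34 ± 0.05 (SD, n = 6) in wild type and 13.91 ± 0.06 and 12.19 ± 0.05 (SD, n = 3) in the deletion. The a genes MFA1 and STE2 read 7.04 ± 0.09 and 7.41 ± 0.14 in wild type and 7.13 ± 0.10 and 7.60 ± 0.14 in the deletion. The a genes lay above background on every array and levels of different probe sets cannot be ranked, so these values do not settle the mating type. Correlation between arrays over all genes was 0.99395 to 0.99819 within wild type, 0.99655 to 0.99683 within the deletion and 0.9862 to 0.99288 between a wild-type and a deletion array.

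Most synthetases of yeast come as a cytosolic enzyme and a separate mitochondrial enzyme, both encoded in the nucleus. The mitochondrial enzymes charge the tRNAs that translate the few proteins encoded by mitochondrial DNA. For alanine, glycine, histidine and valine, a single gene (ALA1, GRS1, HTS1 and VAS1) makes both forms from different start sites, so 1 probe set reads both. An uncharged tRNA in the cytosol activates the kinase Gcn2, which raises translation of the transcription factor Gcn4 and with it the genes of amino acid synthesis.

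No synthetase gene passed the test, in either compartment. The test was limma's moderated test on log2 values, with p adjusted over all 5449 genes and a threshold of 0.05. By that rule 5.52% of all genes were called, against 0 of 19 cytosolic genes, 0 of 13 mitochondrial genes and not ARC1. At an unadjusted p under 0.05, which 22% of all genes met, there were 0 cytosolic and 3 mitochondrial genes. All 3 were lower in the deletion, as were 13.2% of all genes at that p. The median difference, deletion minus wild type, was -0.0015 for the cytosolic genes, -0.090 for the mitochondrial genes and -0.012 for all genes tested. All 13 mitochondrial differences lay below 0, a direction that 54.7% of all genes shared, while 10 of the 19 cytosolic differences did. Without deletion culture 8 it was 12 of 13, since DIA4 then stood at 0.017.

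The fit, which counted each array as 1 replicate, bounded each difference closely. The 95% interval of the difference, not adjusted for the number of genes, lay inside a 1.3-fold change in either direction for all 33 genes, and inside a 1.2-fold change for 30 of them. The exceptions were ALA1, MSF1 and ISM1. The median SD among wild-type cultures was 0.067 for the cytosolic genes and 0.081 for the mitochondrial genes, against 0.090 for all genes. All 33 genes read far above background on every array: the cytosolic genes between 12.33 and 13.81 and the mitochondrial genes between 8.53 and 10.44. Probe sets differ in affinity, so these levels do not rank the genes by abundance.

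**Figure D1:**
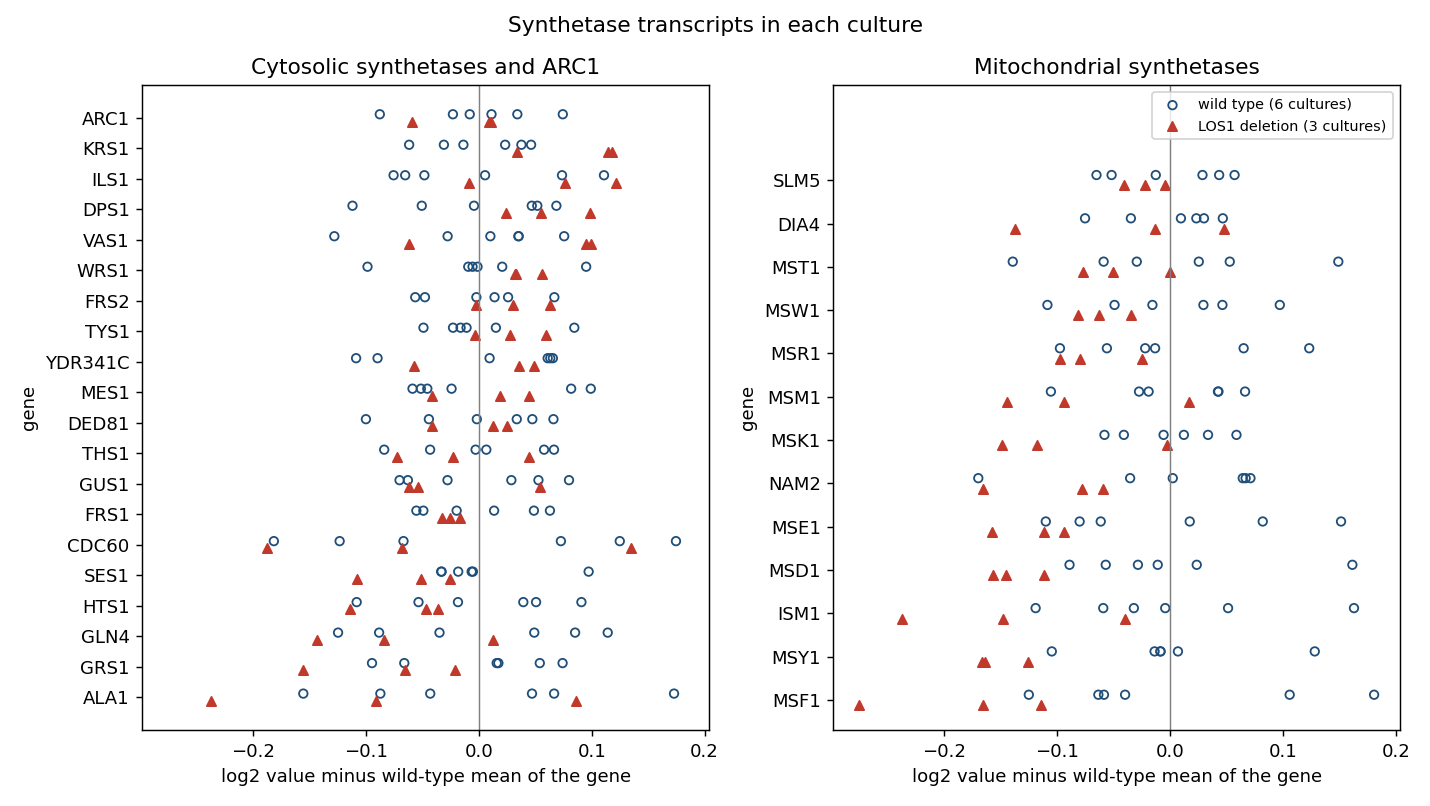
Log2 value of each gene in each culture, minus the wild-type mean of that gene (x axis); rows are genes, open circles are the 6 wild-type cultures and triangles the 3 deletion cultures. Triangles and circles overlap for every cytosolic gene, and all triangles lie left of all circles for MSY1 and MSD1.

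Among the cytosolic enzymes, the smallest p belonged to KRS1, the lysine enzyme, also known as GCD5 from mutants that derepress Gcn4. KRS1 ran from 13.30 to 13.41 in wild type (median 13.37) and was 13.48, 13.40 and 13.48 in deletion cultures 7, 8 and 9. Cultures 7 and 9 lay above every wild-type culture and culture 8 lay within their range. The difference was 0.089 ± 0.041 (SE), or 1.06-fold (adjusted p = 0.244, exact permutation p = 0.0476).

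GRS1, the glycine enzyme of both compartments, ran from 13.22 to 13.39 in wild type (median 13.33) and was 13.29, 13.16 and 13.25 in the deletion. Culture 8 lay under every wild-type culture and the other two lay among them. Its difference was -0.081 ± 0.051 (adjusted p = 0.388, exact permutation p = 0.131). SES1, the serine enzyme, ran from 13.20 to 13.33 in wild type (median 13.22) and was 13.18, 13.13 and 13.21 in the deletion. Cultures 7 and 8 lay under all wild-type cultures, and culture 9 just inside the lower edge of their range. Its difference was -0.062 ± 0.042 (adjusted p = 0.426, exact permutation p = 0.0952). HTS1, the histidine enzyme of both compartments, ran from 12.84 to 13.04 in wild type (median 12.96) and was 12.90, 12.83 and 12.91 in the deletion. The groups overlapped, and its difference was -0.066 ± 0.050 (adjusted p = 0.482, exact permutation p = 0.226).

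The other 15 cytosolic genes are given by the kind of amino acid they charge. For the branched and other large aliphatic residues, ILS1 (isoleucine) and VAS1 (valine) had differences of 0.063 and 0.044, CDC60 (leucine) -0.040 and MES1 (methionine) 0.0069. For the aromatic residues, WRS1 (tryptophan) and TYS1 (tyrosine) had 0.040 and 0.028. FRS1 and FRS2, the β and α subunits of the phenylalanine enzyme, had -0.025 and 0.030. For the charged residues, DPS1 (aspartate), GUS1 (glutamate) and YDR341C (arginine) had 0.059, -0.021 and 0.0091, and for the amides GLN4 (glutamine) and DED81 (asparagine) had -0.072 and -0.0015. ALA1 (alanine) and THS1 (threonine) had -0.081 and -0.017. Adjusted p for the 15 lay between 0.517 (DPS1) and 0.987 (DED81) in the limma fit. Of the 4 genes that serve both compartments, ALA1, GRS1 and HTS1 were below 0 and VAS1 above it. The signs of CDC60, DED81, GUS1, MES1, THS1 and YDR341C turned in at least 1 alternative fit.

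ARC1 ran from 13.32 to 13.48 in wild type (median 13.41) and was 13.41, 13.34 and 13.41 in the deletion. All 3 deletion cultures lay within the wild-type range. The difference was -0.013 ± 0.044 (adjusted p = 0.891, exact permutation p = 0.738), and its sign turned after median centring (0.0047). Its partner enzymes GUS1 and MES1 had differences of -0.021 and 0.0069.

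The mitochondrial genes lay lower in the deletion than in wild type by small amounts. MSY1, the tyrosine enzyme, ran from 9.51 to 9.74 in wild type (median 9.61) and was 9.49, 9.45 and 9.45 in deletion cultures 7, 8 and 9. Every deletion culture lay under every wild-type culture. The difference was -0.15 ± 0.049 (SE), 1.11-fold (adjusted p = 0.109, exact permutation p = 0.0119, the smallest that the 84 assignments of the arrays allow). MSD1, the aspartate enzyme, ran from 9.43 to 9.68 in wild type (median 9.50) and was 9.41, 9.36 and 9.38 in the deletion. These groups did not overlap either, although only 0.02 separated culture 7 from the lowest wild-type culture. Its difference was -0.14 ± 0.055, 1.10-fold (adjusted p = 0.174, exact permutation p = 0.0357). Such a gap, with every deletion culture below wild type, was found for 2 of 13 mitochondrial genes, 0 of 19 cytosolic genes and 7.38% of all genes.

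MSF1, the phenylalanine enzyme, had the largest difference of the 33 genes. It ran from 8.68 to 8.99 in wild type (median 8.76) and was 8.53, 8.70 and 8.64 in the deletion. Culture 8 lay just inside the wild-type range and the other two lay under it. The difference was -0.19 ± 0.071, 1.14-fold (adjusted p = 0.166, exact permutation p = 0.0595). ISM1, the isoleucine enzyme, ran from 9.06 to 9.34 in wild type (median 9.16) and was 9.03, 8.94 and 9.14 in the deletion. Cultures 7 and 8 lay under the wild-type range and culture 9 within it. Its difference was -0.14 ± 0.066 (adjusted p = 0.241, exact permutation p = 0.0833).

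The other 9 mitochondrial genes had differences from -0.12 to -0.022, with adjusted p between 0.28 and 0.794 in the limma fit. MSE1 (glutamate) and NAM2 (leucine, whose protein also takes part in splicing of mitochondrial introns) had -0.12 and -0.10. MSK1 (lysine), MSM1 (methionine), MSR1 (arginine) and MSW1 (tryptophan) had -0.090, -0.074, -0.067 and -0.060. MST1 (threonine), DIA4 (serine) and SLM5 (asparagine) were nearest to 0, with -0.042, -0.034 and -0.022.

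**Figure D2:**
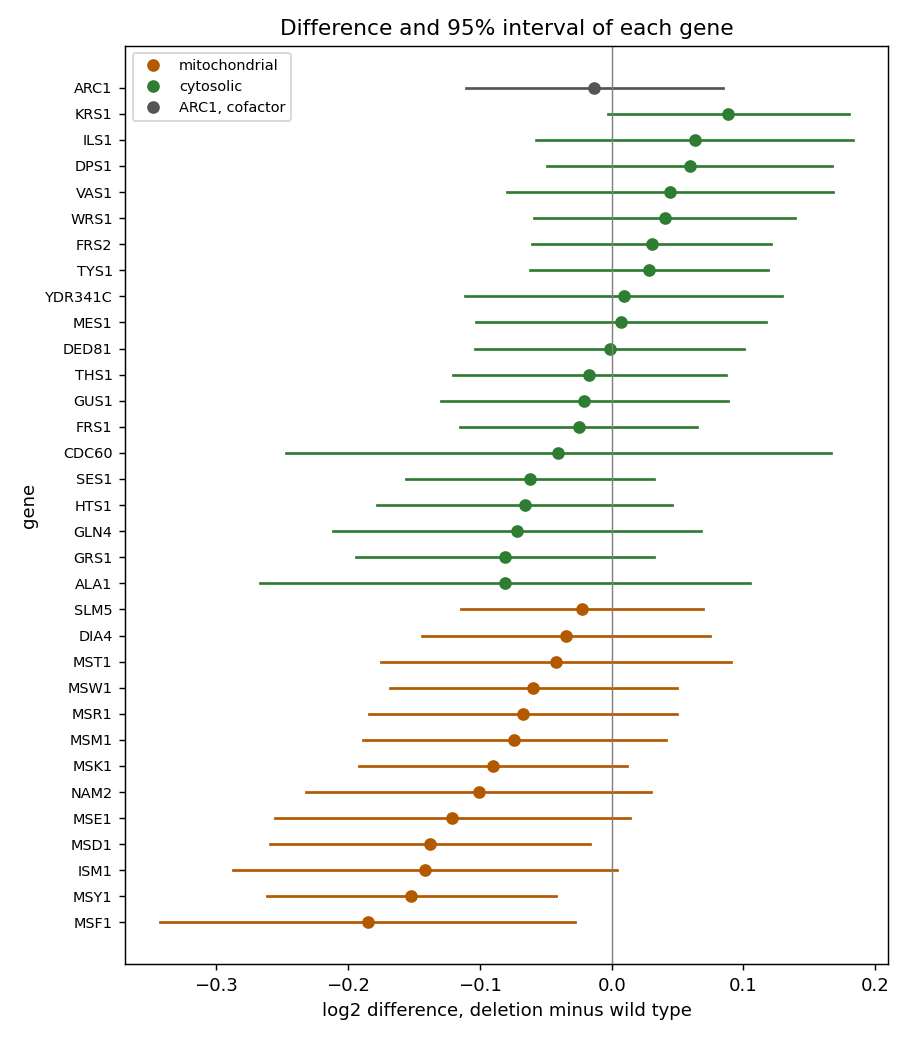
Difference of each gene (x axis, log2, deletion minus wild type) as a point with its 95% interval from limma as a bar; orange marks mitochondrial, green cytosolic genes and grey ARC1. All 13 orange points lie left of 0, and the bars of MSF1, MSY1 and MSD1 do not reach 0, although none of the 33 genes passed after adjustment over 5449 genes.

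The low position of the mitochondrial genes was also seen under both other scalings tried. The deposited values leave the median gene at -0.012. After centring each array on its median, the mitochondrial median was -0.072 and all 13 differences stayed below 0, beside 48.0% of all genes. After quantile normalization repeated over the S. cerevisiae genes it was -0.070, again with 13 of 13 below 0, beside 49.9% of all genes. The cytosolic median was 0.016 and -0.014 under these scalings, with 8 and 11 of 19 genes below 0. Among the 1761 genes whose mean level lay in the range of the mitochondrial synthetases, a comparison added after the data were seen, the median was -0.017 and 55.9% lay below 0. Of 54 genes for mitochondrial ribosomal proteins (symbols starting MRPL, MRPS or RSM, a list also added after the data were seen), 36 lay below 0, with a median of -0.052, and 0 passed the test (lowest adjusted p = 0.0583). At an unadjusted p under 0.05, in either direction, there were 12 of these 54, a share near the 22% of all genes. Every deletion culture lay below every wild-type culture for 10 of the 54, and above for 0. Over all genes these shares were 7.38% below and 5.19% above.

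For 13 amino acids both a cytosolic and a mitochondrial gene were measured, and each pair can be set side by side on the same arrays. The mitochondrial gene had the lower difference in 12 of the 13 pairs. The pairs reuse the differences given above, where all 13 mitochondrial differences lay below 0 and the cytosolic median was -0.0015. The count is therefore not a separate result, and no like share over all genes was computed. The gap (mitochondrial minus cytosolic difference, log2) was widest for isoleucine at -0.20, with -0.14 for ISM1 beside 0.063 for ILS1. The wild-type SD of that log ratio was 0.12. For aspartate it was -0.20, with an SD of 0.095 in wild type and 0.015 in the deletion. The gap was -0.19 for phenylalanine, -0.18 for tyrosine and -0.18 for lysine, where KRS1 and MSK1 stood at 0.089 and -0.090. Serine was the exception, with -0.034 for DIA4 and -0.062 for SES1. The median gap was -0.10. It is given as a description, and the difference between the compartments was not tested.

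**Figure D3:**
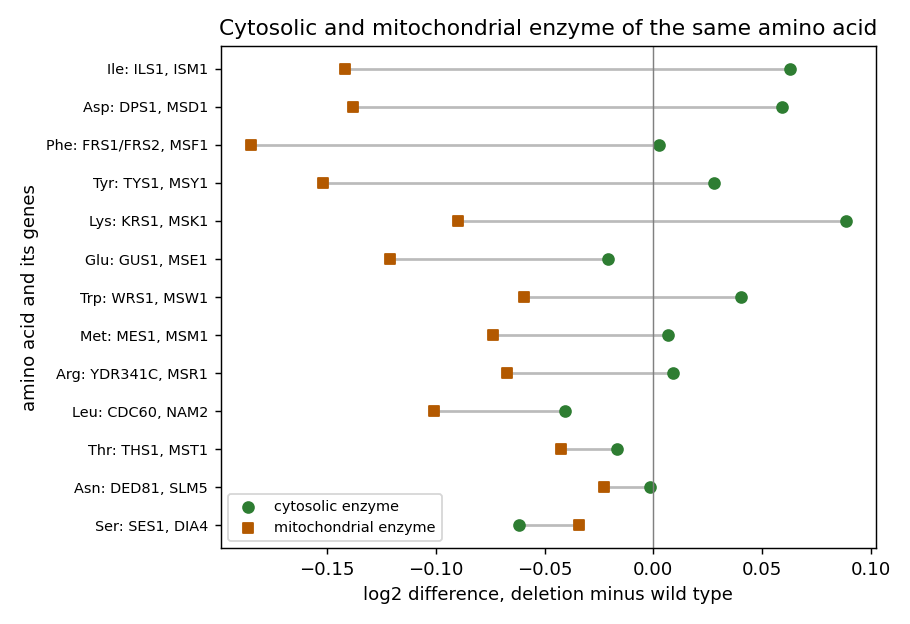
Log2 difference (x axis, deletion minus wild type) of the cytosolic gene (circle) and the mitochondrial gene (square) of each of 13 amino acids, joined by a line; for phenylalanine the circle is the mean of FRS1 and FRS2. The square lies left of the circle in 12 pairs and right of it for serine.

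The synthetase genes of a compartment also varied together between cultures of the same strain. The mean deviation of the 19 cytosolic genes from their wild-type means was -0.084 and -0.053 in wild-type cultures 5 and 6, where all 19 genes lay below their mean, and 0.063 in culture 4. In deletion cultures 7, 8 and 9 it was 0.045, -0.059 and -0.0014. Culture 8 held the lowest deletion value for 16 of the 19 genes. These shifts between cultures of a strain were wider than the difference between the strains. For the 13 mitochondrial genes the mean deviation was -0.11, -0.10 and -0.073 in cultures 7, 8 and 9. In wild type it ran from -0.064 in culture 6, where all 13 genes lay below their mean, to 0.094 in culture 2, which held the highest wild-type value for 8 of 13 genes. The mean over all genes tested ran from -0.018 to 0.027 in wild type and from -0.035 to -0.0038 in the deletion. Quantile normalization of the arrays holds that mean nearly constant, so its narrower range is no contrast to the synthetase genes.

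**Figure D4:**
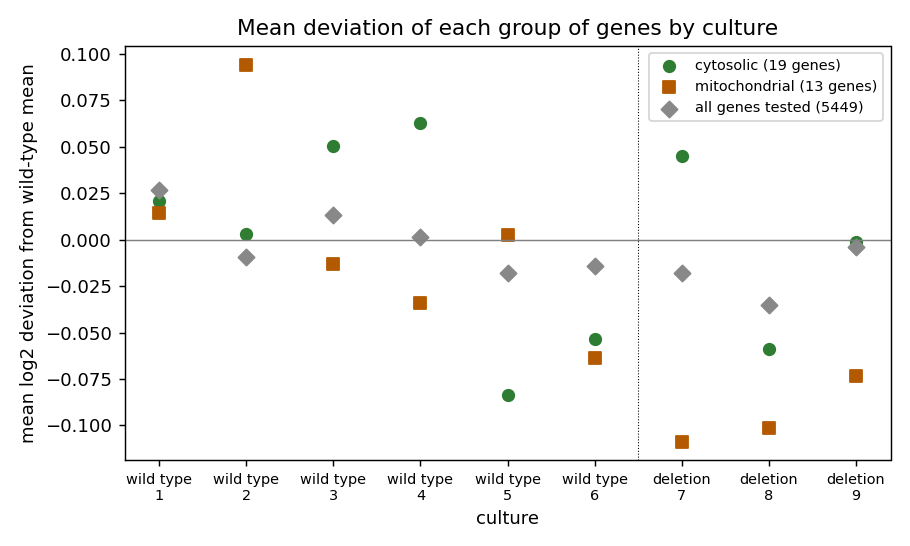
Mean log2 deviation from the wild-type mean (y axis) of the 19 cytosolic genes (circles), 13 mitochondrial genes (squares) and all 5449 genes tested (diamonds) in each culture (x axis; the dotted line parts wild type from deletion). Squares lie at -0.11 to -0.073 in the deletion cultures and at -0.064 to 0.094 in wild type, while the circles of both strains overlap.

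Synthetases that are not on the list, and enzymes that act on tRNA carrying an amino acid or peptide, were read from the same fit. YHR020W and AIM10, the cytosolic and mitochondrial proline enzymes, had differences of -0.059 and -0.050 (adjusted p = 0.466 and 0.626), and GRS2, a second glycine gene, had -0.012 (adjusted p = 0.896). Of 10 such genes 1 rose and 0 fell past the threshold, where 2.62% of all genes rose and 2.9% fell. The gene that rose was GTF1, a subunit of the mitochondrial amidotransferase that converts glutamate on tRNA into glutamine. GTF1 ran from 10.35 to 10.52 in wild type (median 10.44) and was 10.55, 10.63 and 10.72 in the deletion. Every deletion culture lay above every wild-type culture. The difference was 0.20 ± 0.050 (adjusted p = 0.0478, exact permutation p = 0.0119), and 5.19% of all genes had such a gap upward. The call did not hold in 12 of the 30 other fits: 7 of the 9 that left out 1 array (adjusted p 0.0521 to 0.191) and 5 of the 15 that paired wild-type arrays. The partner subunits PET112 and HER2 had -0.019 and -0.070 (adjusted p = 0.882 and 0.323). DTD1 had a larger difference than GTF1, 0.25, and did not pass (limma adjusted p = 0.222). FMT1, PTH2 and PTH1 had 0.18, 0.14 and 0.069 (limma adjusted p = 0.581, 0.272 and 0.778).

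Genes that make amino acids were set beside the synthetase of the same amino acid. Of 63 measured genes on the synthesis lists of 19 amino acids, 25 rose and 0 fell past the threshold. Over all genes, 2.62% rose and 2.9% fell. SER3 of serine synthesis, however, passed as lower in 11 of the 30 alternative fits. For arginine 4 of 7 measured genes rose, ARG1 by 2.08, ARG4 by 1.36, ARG7 by 1.35 and CPA1 by 0.42, while the arginine enzymes YDR341C and MSR1 stood at 0.0091 and -0.067 and did not pass. For histidine 4 of 6 listed genes rose (HIS4 by 0.63, HIS5 by 0.52, HIS2 by 0.38 and HIS1 by 0.23), and HTS1 stood at -0.066. HIS3, LEU2 and LYS2 were kept off these lists as engineered loci. HIS3 rose by 0.69 (limma adjusted p = 3.68e-04), with every deletion culture above every wild-type culture. LEU2 and LYS2 lay under background on 7 and 8 of the 9 arrays and did not pass. For leucine all 3 listed genes rose (LEU4 by 0.51, LEU9 by 0.39 and LEU1 by 0.31), beside -0.040 for CDC60 and -0.10 for NAM2. For methionine 3 of 5 rose (STR3 by 0.73, MET17 by 0.66 and STR2 by 0.32), beside 0.0069 for MES1 and -0.074 for MSM1.

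For tryptophan 3 of 4 rose (TRP3 by 0.39, TRP4 by 0.34 and TRP2 by 0.27), beside 0.040 for WRS1 and -0.060 for MSW1. The isoleucine and valine lists share ILV6, ILV2 and ILV3, which rose by 0.55, 0.35 and 0.21, beside 0.063 for ILS1, -0.14 for ISM1 and 0.044 for VAS1. HOM3 and HOM2 of threonine synthesis rose by 0.56 and 0.36, beside -0.017 for THS1. The lysine gene LYS1, the asparagine gene ASN1 and the aspartate gene AAT2 rose by 0.41, 0.29 and 0.25. The calls of HIS1, HIS2, LEU1, ILV3, TRP2 and ASN1 were lost in 1 to 5 of the 9 fits that left out 1 array. In the other 8 lists no gene passed, and the smallest p belonged to ARO7 (phenylalanine and tyrosine, 0.067), CYS4 (cysteine, -0.016), SER3 (serine, -0.36), GLY1 (glycine, 0.12), GLN1 (glutamine, 0.13), GDH3 (glutamate, 0.064) and ALT2 (alanine, 0.12). SER3 ran from 9.49 to 9.91 in wild type (median 9.88) and was 9.42, 9.33 and 9.52 in the deletion. Only culture 9 lay within the wild-type range. Its adjusted p was 0.0618, and over the alternative fits it ran from 0.0109 (without wild-type culture 5) to 0.225 (without deletion culture 8).

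The synthetase difference was set against the median difference of the synthesis genes of the same amino acid. Pearson's r was 0.26 (Spearman's rho 0.40) over 18 amino acids for the cytosolic genes and 0.32 (rho 0.24) over 13 for the mitochondrial genes. Without the 2 amino acids farthest from the median on the synthesis axis, r was 0.30 and 0.26. These are low values, given with no test as descriptions across amino acids that share arrays, and the isoleucine, valine, phenylalanine and tyrosine lists share genes.

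**Figure D5:**
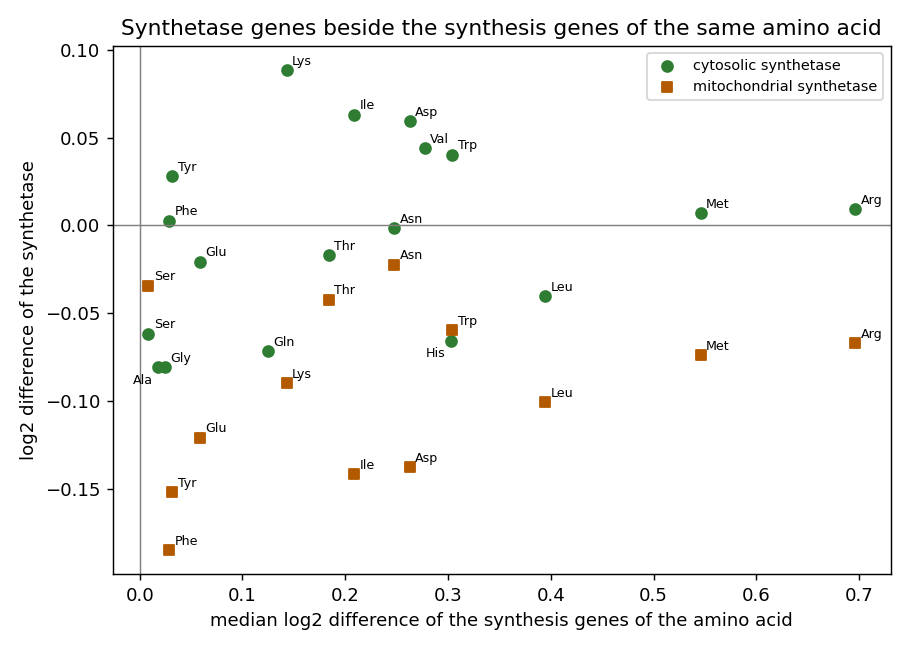
Log2 difference of the synthetase (y axis) against the median log2 difference of the synthesis genes of the same amino acid (x axis), with circles for 18 cytosolic and squares for 13 mitochondrial values. The x values reach 0.70 for arginine, while all y values lie between -0.19 and 0.089.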

How the data were processed

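RNA from 9 yeast cultures was hybridised to Affymetrix Yeast_2 arrays, 1 array each. The authors deposited log2 expression values per probe set, made with RMA per the submitters' processing notes (version not given in the sources used here). RMA corrects background, quantile normalizes arrays and summarises probes, so a shift common to most transcripts would not be seen. A motif search in promoters and protein sequences were not analysed here. Of 10928 probe sets, 7244 named 1 gene, 5498 matched S. cerevisiae R64 and 1746 were taken as fission yeast background. For 47 genes with several probe sets the brightest was kept, which left 5449 genes.

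Differences (deletion minus wild type) were tested with limma 3.58.1 (lmFit, eBayes, 2-sided, Benjamini-Hochberg over 5449 genes, threshold 0.05) in R 4.3.3, after the script was tested on simulated data. Every adjusted p comes from this fit unless stated. Exact 2-sided permutation tests used all 84 assignments of the arrays. The genes and lists were chosen with earlier results of these data known, so no test was run on a list. Each deletion value, with the wild-type range and median, is given for LOS1, ARC1, synthetases whose groups do not overlap and the 4 smallest p per compartment. The same is given for GTF1, SER3, TUF1 and GCN4. Other genes past the threshold have their difference only, or a mean for URA3. Among related genes, those past the threshold or with the smallest p of a list, and chosen others, are named. The labels name no genome build, and coordinates were not used. The number of arrays limits the precision.

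The 30 alternative fits were median centring, repeated quantile normalization, dim genes left out, averaged probe sets, a robust variance prior that follows intensity (with statmod 1.5.0), array weights, 15 pairings of wild-type arrays as a random block and each array left out.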

Additional observations from a re-analysis of the deposited data

Results flagged for a closer look

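Each of the 33 genes was examined for a wild-type culture that stands apart from the other 5, by a gap wide enough that chance marks about 5% of groups. SES1, the cytosolic serine enzyme, was marked, with 13.33 in wild-type culture 2 and 13.20 to 13.23 in the other 5 cultures. Without culture 2 the SES1 difference was -0.042 (adjusted p = 0.56), beside -0.062 with it.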

How the results depend on the processing

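None of the 33 genes passed in any of the 30 alternative fits (lowest adjusted p = 0.0616, MSY1 with wild-type cultures 1 and 3, 2 and 6, and 4 and 5 paired), and none passed at an adjusted p of 0.10 in the original fit. Of all genes, 301 passed, against 498 with array weights, 126 (without deletion culture 8) to 478 (without wild-type culture 5) with an array left out, and 196 to 468 over the pairings. The fitted correlation within a pair was 0.32 in the pairing with 196 calls and -0.37 in that with 468. In the pairing with the lowest MSY1 p it was -0.29. Each pairing with a negative correlation passed more genes than the original fit, and each with a positive one fewer. Without 1 array, the median ran from -0.022 to 0.019 for the cytosolic and from -0.095 to -0.076 for the mitochondrial genes. The sign held in every fit for 25 of the 33 genes, and none of the genes whose sign turned was called. Median centring turned DED81 to 0.016, THS1 to 0.0010, ARC1 to 0.0047, CYS4 to 0.0018 and GRS2 to 0.0055. Repeated quantile normalization turned YDR341C to -0.0098, GRS2 to 0.011 and PET112 to 0.015, and array weights turned DED81 to 0.0061. With an array left out, differences ran from -0.13 to 0.033 for CDC60, -0.022 to 0.019 for DED81, -0.058 to 0.00020 for GUS1, -0.012 to 0.031 for MES1, -0.048 to 0.011 for THS1, -0.013 to 0.042 for YDR341C, -0.075 to 0.017 for DIA4, -0.031 to 0.0098 for ARC1, -0.014 to 0.10 for GDH3, -0.036 to 0.015 for GRS2 and -0.045 to 0.012 for PET112. The cause was not tested. No paired analysis was possible because the groups share no replicate numbers.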

Other observations

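Charged tRNA passes to elongation factors, and uncharged tRNA is sensed by the Gcn2 pathway. Of 6 measured elongation factor genes 0 passed the limma test, where 5.52% of all genes did, and 1 had an unadjusted p under 0.05, where 22% of all genes did. The smallest p was that of TUF1, the mitochondrial factor that delivers charged tRNA to the ribosome, which ran from 11.87 to 12.11 in wild type (median 12.02) and was 11.91, 11.84 and 11.78 in the deletion, a difference of -0.16 (limma adjusted p = 0.156). TEF2, its cytosolic counterpart, had a difference of 0.0082 (limma adjusted p = 0.913), from a probe set that can also read near-identical transcripts.

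The list for the Gcn2 pathway held 11 measured genes, from the sensing of uncharged tRNA through translation initiation factors to GCN4. Of these, 0 passed the limma test and 0 had an unadjusted p under 0.05, beside the same 5.52% and 22% of all genes. The smallest p was that of SUI2, the subunit of translation initiation factor eIF2 that Gcn2 phosphorylates, with a difference of -0.084 (limma adjusted p = 0.274) and every deletion culture below every wild-type culture, as for 7.38% of all genes. YIH1, which encodes an inhibitor of Gcn2 activation, had 0.17 (limma adjusted p = 0.28), and GCN2 itself had -0.078 (limma adjusted p = 0.52). GCN4 ran from 13.63 to 13.66 in wild type (median 13.65) and was 13.68, 13.69 and 13.70 in the deletion. Every deletion culture lay above every wild-type culture, as for 5.19% of all genes, and the difference was 0.039 (limma adjusted p = 0.525, exact permutation p = 0.0119). TEF2, YIH1, GCN2 and GCN4 were named after their values were seen.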
